A study of Mus musculus with 8 samples.

Results

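The testis-specific serine kinases are a small family of protein kinases made in male germ cells, and the genes described here are 5 of its kinases, Tssk1, Tssk2, Tssk3, Tssk4 and Tssk6, with Tsks, whose protein is a substrate of the family. They were chosen by name as 6 of the 54532 genes in the deposited table, and all 6 were above 1 FPKM in every library. FPKM, the count of sequenced fragments scaled to gene length and library size, is the unit of the levels given here, so levels of different genes can be compared on it. RNA had been sequenced from spermatocytes that were purified by sedimentation from C57BL/6J mice on postnatal day (PD) 24 and PD 52. At each age the study compared MFN2 WT mice, labelled as Mfn2 loxp/loxp, with MFN2 cKO mice, in which Stra8-Cre, active in male germ cells, deletes part of the floxed gene. MFN2 is mitofusin 2, a protein of the outer mitochondrial membrane that takes part in mitochondrial fusion. At each age and genotype 1 library came from pachytene cells (P) and 1 from leptotene and zygotene cells (L/Z), giving 8 groups of 1 library, and the labels do not say how many mice were pooled.

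The kinases are best known from spermatids, the haploid cells that follow meiosis. Loss of Tssk1 and Tssk2 together, or of Tssk6, makes male mice infertile, and the family acts on sperm shape, the flagellum and the packing of sperm chromatin. Tsks protein was found as a partner of Tssk1 and Tssk2 and is phosphorylated by them. TSSK6 needs the co-chaperone encoded by Tsacc, which links it to HSP90.

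The genes are compact and scattered over the genome (build GRCm38, from the table and GENCODE M21). Tssk1 (ENSMUSG00000041566) and Tssk2 (ENSMUSG00000045521) stand head to tail on the forward strand at chr16:17894223-17897922 and chr16:17898637-17900024, with 714 bases between them, and each has 1 exon. Tssk3 (ENSMUSG00000000411) lies on the reverse strand at chr4:129489014-129491022 and has 2 exons. Tssk4 (ENSMUSG00000007591), forward at chr14:55650184-55652539, has 3 exons and 7 annotated transcripts. Tssk6 (ENSMUSG00000047654) is forward at chr8:69902184-69903518 with 1 exon, and Tsks (ENSMUSG00000059891) is forward at chr7:44943204-44958035 with 11 exons. The coding sequences of Tssk1 and Tssk2 were identical over 76.3% of their alignment, and no other pair of the kinases passed 55.6%.

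The stretches upstream of the neighbours Tssk1 and Tssk2 are shown because both genes carry the same 8-base element close to their start. The element, TGACTTCA on either strand, was picked after these sequences had been read. It was present in the 250 bases before the start of 1.31% of 32851 RefSeq promoters (GRCm38.p6). The stretch of Tssk1 is chr16:17894151-17894180 and that of Tssk2 is chr16:17898575-17898604, both on the forward strand and outside annotated exons. Capitals mark the element, which Tssk1 holds a second time in inverted form.
Tssk1: tttgTGACTTCAcccacTGAAGTCAcctgg
Tssk2: tttaTGACTTCAttcgctggtcacttggtg
In Tssk1 the copies start 48 and 35 bases before the RefSeq start, and in Tssk2 the single copy starts 58 bases before it. The other 4 genes held no copy in that window. The full cyclic AMP element TGACGTCA, in 1.55% of promoters, was in none of the 6, and its shorter form TGACG, in 17.8%, was only in that of Tssk6. TATAAA, in 12.4% of promoters, was in none of the 6. A match in letters is a description of the window and says nothing on which factor binds there.

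The libraries held between 14340665 and 20379950 reads on genes. The targeted gene was lower in all 4 MFN2 cKO libraries: Mfn2 stood at 51.3% of MFN2 WT in P and 41.8% in L/Z cells at PD 24, and at 80.5% and 49.1% at PD 52. These values count the whole gene and not the deleted exon alone. No gene of the 8 marker lists was at 0 in any library. Of the 10 pachytene and diplotene markers limma called 2 higher in P than in L/Z libraries and 1 lower, with a median log2 difference of 0.08. Those higher were Piwil1 and Pou5f2 (168 to 278 and 44.2 to 63.3 FPKM in P, 15.98 to 40.5 and 3.78 to 4.37 FPKM in L/Z libraries), and the lower one was Cdc25c (-0.88, adjusted p = 0.00856). The leptotene and zygotene list did not follow the labels in the same way. Its summed level was 140.0 to 278 FPKM in L/Z and 272 to 372 FPKM in P libraries, and limma called 6 of its 11 genes higher in P and 0 higher in L/Z. Dmc1, Prdm9 and Mei1 of this list were higher in the L/Z library at each age and genotype, without a call. Dmc1, for instance, was at 5.20 to 17.2 FPKM in L/Z and 3.59 to 7.68 FPKM in P libraries. Spermatid markers such as Prm1 and Tnp2, genes of sperm chromatin, were higher in L/Z than in P libraries, and 15 of that list's 17 genes were called so.

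Tssk1 and Tssk2, the best studied pair, differed in level but followed much the same order over the libraries, with only MFN2 WT P cells and MFN2 cKO L/Z cells at PD 24 in exchanged places. In P cells at PD 24 Tssk1 was at 25.2 FPKM in MFN2 WT and 9.81 FPKM in MFN2 cKO, and in L/Z cells of that age at 55.1 and 29.4 FPKM. At PD 52 its level was 62.5 FPKM in MFN2 WT and 43.6 FPKM in MFN2 cKO P cells, and 104.2 and 128.5 FPKM in L/Z cells. MFN2 cKO was the lower library of its pair everywhere except in L/Z cells at PD 52. Tssk2 stood higher in every library, at 54.8 FPKM (MFN2 WT) and 12.1 FPKM (MFN2 cKO) in P cells and 115.0 and 47.6 FPKM in L/Z cells at PD 24. At PD 52 it reached 131.8 and 90.2 FPKM in P cells and 250.01 and 366.6 FPKM in L/Z cells. Both genes were thus lowest in the young MFN2 cKO P library and highest in the older MFN2 cKO L/Z library. Of the 50-base windows of Tssk2, 9.34% also occur in Tssk1, so few reads could belong to either.

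Tssk3, a small kinase of spermatids, was at 20.9 FPKM in MFN2 WT and 6.47 FPKM in MFN2 cKO P cells and at 49.5 and 24.97 FPKM in L/Z cells at PD 24. In the older mice it was at 57.7 and 33.3 FPKM in P cells and at 116.3 and 145.5 FPKM in L/Z cells. The order of the libraries is that of Tssk1. Tssk4, which acts on the flagellar protein ODF2, was at 17.6 and 7.76 FPKM in P cells and at 37.1 and 27.3 FPKM in L/Z cells at PD 24. Its levels at PD 52 were 65.5 and 48.6 FPKM in P cells and 94.8 and 120.9 FPKM in L/Z cells. Among the 5 kinases the MFN2 cKO and MFN2 WT levels of Tssk4 lay closest together in P and L/Z cells at PD 24 and in P cells at PD 52.

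Tssk6, which is needed for the packing of sperm DNA, had the widest range. At PD 24 it was at 13.4 FPKM in MFN2 WT but 1.01 FPKM in MFN2 cKO P cells, from 360 and 25 reads. In L/Z cells of that age it was at 23.3 and 1.86 FPKM, from 587 and 44 reads. In P cells at PD 52 it was at 50.3 and 17.4 FPKM, and in L/Z cells at 103.3 and 143.9 FPKM. It was thus near 1 FPKM in the young MFN2 cKO libraries and, in L/Z cells at PD 52, stood above its control. Of its 1335 exonic bases 29.2% also belong to exons of genes on the other strand, 375 to Ndufa13 and 15 to Yjefn3, and no use of strand in counting is stated. Reads in these bases cannot be told apart. Ndufa13 itself was between 20.7 and 63.1 FPKM, with its lowest value in young MFN2 cKO P cells. In MFN2 WT and MFN2 cKO it stood at 33.0 and 20.7 FPKM in P cells and at 31.0 and 34.3 FPKM in L/Z cells at PD 24. At PD 52 it stood at 63.1 and 21.3 FPKM in P cells and at 38.7 and 45.6 FPKM in L/Z cells. Tssk6 was at 7.98% of MFN2 WT in young L/Z cells and at 34.7% in P cells at PD 52. The part of Ndufa13 reads in the values of Tssk6 was not tested. The overlapping genes were looked up after the values of Tssk6 had been seen.

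Tsks, the substrate, was at 51.8 FPKM in MFN2 WT and 12.3 FPKM in MFN2 cKO P cells and at 102.4 and 35.4 FPKM in L/Z cells at PD 24. At PD 52 it was at 116.4 and 77.9 FPKM in P cells and at 256.2 and 309.3 FPKM in L/Z cells. Its levels were close to those of Tssk2 and above those of the other 4 kinases in all 8 libraries. All 6 genes were lowest in MFN2 cKO P cells at PD 24 and highest in MFN2 cKO L/Z cells at PD 52. The highest level was 13.1 times the lowest for Tssk1, 15.6 for Tssk4, 22.5 for Tssk3, 25.1 for Tsks, 30.2 for Tssk2 and 143 for Tssk6. With 1 library per group the spread between mice is unknown. By counting error alone, the 95% exact Poisson intervals of 7 neighbours in the order of each gene overlapped only for Tssk6 in the young MFN2 cKO libraries, at 1.01 (0.652 to 1.49) FPKM in P and 1.86 (1.35 to 2.49) FPKM in L/Z cells. Pairs of the 6 genes had a Pearson correlation of log2(FPKM + 1) between 0.902 (Tssk4 and Tssk6) and 0.998 (Tssk1 and Tssk3) over the 8 libraries, which share their depth and cell makeup between genes.

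**Figure D1:**
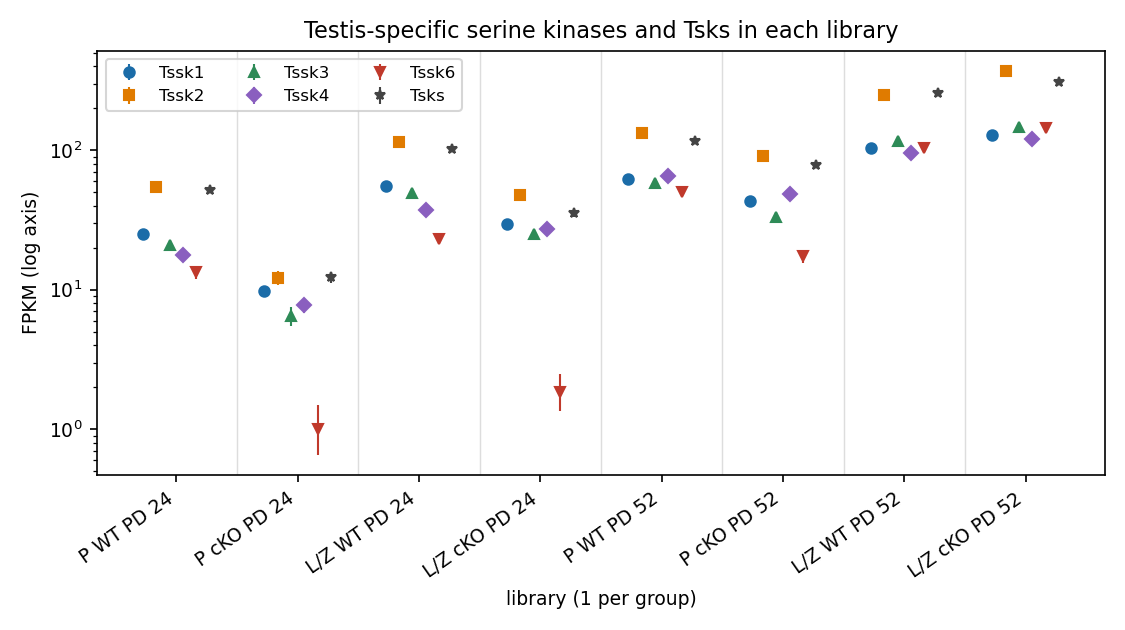
FPKM (log axis) of Tssk1, Tssk2, Tssk3, Tssk4, Tssk6 and Tsks in each of the 8 libraries, with bars for the 95% counting interval. All genes are lowest in MFN2 cKO P cells at PD 24 and highest in MFN2 cKO L/Z cells at PD 52, and Tssk6 stands apart at 1.01 and 1.86 FPKM in the young MFN2 cKO libraries.

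The comparison of ages asks how the genes differ between the juvenile testis, where the first wave of spermatids has just appeared, and the adult testis. All 6 genes rose with age. Over the 4 pairs of libraries matched for stage and genotype, limma gave log2 increases in log2(FPKM + 1) of 1.58 ± 0.24 (SE) for Tssk1, 2.02 ± 0.36 for Tssk2, 1.83 ± 0.25 for Tssk3, 1.94 ± 0.22 for Tssk4, 3.20 ± 0.62 for Tssk6 and 2.03 ± 0.36 for Tsks. Each gene was higher at PD 52 in 4 of 4 pairs, and the adjusted p from limma lay between 0.0185 and 0.0272. Of all 21175 genes tested 11.2% were called higher at PD 52, and the median over all genes was 0.00, against 1.98 over the 6 genes. Within pairs, at least 2-fold higher levels were found for 6 of 6 genes in MFN2 WT P cells (9.43% of all genes), 5 of 6 in MFN2 WT L/Z cells (7.94%), 6 of 6 in MFN2 cKO P cells (13.6%) and 6 of 6 in MFN2 cKO L/Z cells (18.8%). The exception, Tssk1 in MFN2 WT L/Z cells, was 1.89 times as high in FPKM at PD 52. Increases were larger in MFN2 cKO, with a median log2 difference of 2.53 in P and 2.71 in L/Z cells, than in MFN2 WT, with 1.35 and 1.27. Whether they differ is tested by the interaction of genotype and age described further on.

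The spermatid markers moved with the same comparison. Of their 17 genes 14 were called higher at PD 52 and 0 lower, with a median log2 effect of 2.52, and their summed level was 265 to 3274 FPKM at PD 24 and 2982 to 22971 FPKM at PD 52. Other lists moved as well. Of the 10 Sertoli cell markers 6 were called lower at PD 52 and 0 higher, with a median of -1.34, and their sum ran from 248 to 882 FPKM at PD 24 and from 28.7 to 680 FPKM at PD 52. Of 6 peritubular myoid markers tested 2 were called lower and 1, Actg2, higher (2.07), of the 10 pachytene markers 2 higher, and of the other 4 lists 0. In bulk RNA fewer cells of a type and less RNA per cell cannot be told apart, and the part of any of these cells in the rise of the kinases was not tested. All calls for the 6 genes were lost when the MFN2 cKO P, the MFN2 WT L/Z or the MFN2 cKO L/Z pair was left out. In each of these fits 0 of all 21175 genes were called in either direction. The limma adjusted p of the 6 genes then ran up to 0.154, and the direction held for each gene. Without the block for pairs 0 of the 6 were called, beside 1 of all genes. A pseudocount of 0.1 or no filter on FPKM left 3 of the 6.

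The comparison of stages is between P and L/Z cells of the same age and genotype. All 6 genes were lower in P than in L/Z cells. limma gave log2 differences of -1.22 ± 0.19 for Tssk1, -1.47 ± 0.23 for Tssk2, -1.52 ± 0.22 for Tssk3, -1.14 ± 0.21 for Tssk4, -1.32 ± 0.39 for Tssk6 and -1.38 ± 0.20 for Tsks, with adjusted p between 0.00574 and 0.0452. Each was lower in P cells in 4 of 4 pairs, while 15.9% of all genes were called lower in P. At least 2-fold lower levels in P were found for 4 of 6 genes in MFN2 WT at PD 24 (8.29% of all genes), 5 of 6 in MFN2 cKO at PD 24 (11.8%), 2 of 6 in MFN2 WT at PD 52 (10.3%) and 6 of 6 in MFN2 cKO at PD 52 (15.3%). The widest gap was that of Tssk6 in MFN2 cKO at PD 52, where P cells held 12.1% of the L/Z level. Of the 17 spermatid markers, 15 were called lower in P and 0 higher, with a median of -1.58, and their part in the difference was not tested. Markers of macrophages and of peritubular myoid cells, which are no germ cells, were also higher in L/Z libraries (8 of 10 and 6 of 6 tested), and the 10 Sertoli cell markers were all higher in P. Of the myoid markers, Actg2 had its extremes in the same libraries as the 6 genes. It was lowest in MFN2 cKO P cells at PD 24 (5.39 FPKM) and highest in MFN2 cKO L/Z cells at PD 52 (162 FPKM). The calls of the 6 genes were lost without the MFN2 WT pair at PD 24 or the MFN2 cKO pair at PD 52. Their limma adjusted p then ran up to 0.136, and 0 of all 21175 genes were called in either of these fits. Without the block for pairs 0 of the 6 were called, beside 856 of all genes higher in P and 279 lower. The call of Tssk6 was also lost, and 5 remained, without the MFN2 cKO pair at PD 24 (adjusted p = 0.0723), without the MFN2 WT pair at PD 52 (0.117), with a pseudocount of 0.1 (0.0708) and with no filter on FPKM (0.166). Without the MFN2 cKO pair at PD 52 the effect on Tssk6 was -0.76.

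**Figure D2:**
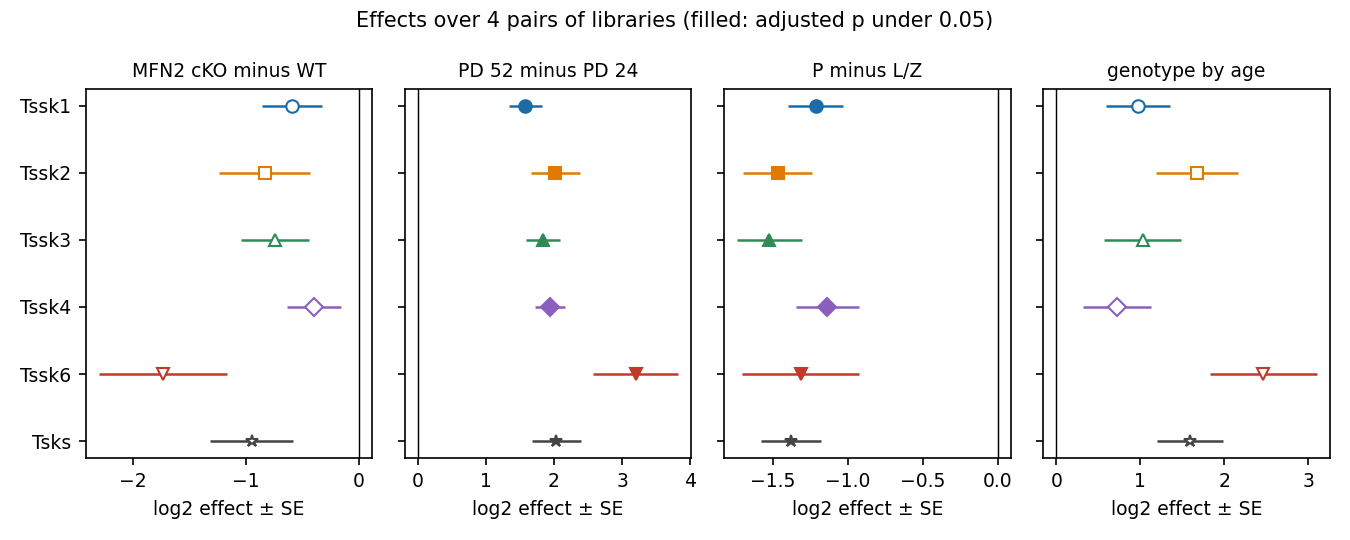
Log2 effect with its standard error for each gene, from limma on log2(FPKM + 1) over 4 pairs of libraries, for genotype, age, stage and the interaction of genotype and age. Filled marks have an adjusted p under 0.05 and are found for age and stage, where all 6 genes lie on the same side of 0. Open marks, for genotype and the interaction, did not pass.

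The main comparison of the study is that of genotypes. In MFN2 cKO P cells at PD 24 all 6 genes were at least 2-fold lower than in MFN2 WT, as were 6.29% of all genes. Tssk6 was at 7.53% of its MFN2 WT level in FPKM, Tssk2 at 22.1%, Tsks at 23.7%, Tssk3 at 30.9%, Tssk1 at 39.0% and Tssk4 at 44.1%. The median log2 difference was -1.77, against -0.10 over all genes. In L/Z cells of the same age all 6 genes were again lower, 3 of them at least 2-fold (7.03% of all genes), namely Tssk6 at 7.98%, Tsks at 34.6% and Tssk2 at 41.4% of MFN2 WT. The other 3 were at 53.3% (Tssk1), 50.5% (Tssk3) and 73.5% (Tssk4).

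At PD 52 the stages parted. In MFN2 cKO P cells all 6 genes were lower, but only Tssk6, at 34.7% of MFN2 WT, by at least 2-fold (5.78% of all genes), and the others were at 57.7% (Tssk3) to 74.1% (Tssk4). In MFN2 cKO L/Z cells all 6 genes were higher than in MFN2 WT, from 121% (Tsks) to 147% (Tssk2), and 0 of 6 by 2-fold, where 4.83% of all genes were. The 95% counting intervals of all these differences excluded 0, but they cover counting error only and say nothing on the spread between mice.

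Over the 4 pairs limma called 0 of the 6 genes for genotype. The log2 effects were -0.59 ± 0.26 for Tssk1, -0.83 ± 0.40 for Tssk2, -0.74 ± 0.30 for Tssk3, -0.40 ± 0.24 for Tssk4, -1.73 ± 0.57 for Tssk6 and -0.95 ± 0.37 for Tsks, each lower in 3 of 4 pairs, with adjusted p between 0.570 and 0.811. Without adjustment 3 genes, Tssk3, Tssk6 and Tsks, had a limma p under 0.05, as had 1480 of all 21175 genes. Of all genes limma called 17 higher (0.0803%) and 1 lower (0.00472%). With limma's voom weights on recovered reads the count for the 6 genes was also 0. The size of the effects moved with the pairs used. Without the P pair at PD 24 they were -0.37 for Tssk1, -0.42 for Tssk2, -0.47 for Tssk3, -0.17 for Tssk4 and -0.60 for Tsks, and without the L/Z pair at PD 52 they were -0.89 for Tssk1, -1.29 for Tssk2 and -0.65 for Tssk4.

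Markers of other cells also differed between genotypes within pairs. The spermatid list was lower in MFN2 cKO at PD 24. Of its 17 genes 15 were at least 2-fold lower in P cells (6.29% of all genes) and 12 in L/Z cells (7.03%). Over the 4 pairs limma called 0 of the 17 for genotype, with a median of -0.92. The summed level of the list was 15.9% (P) and 23.8% (L/Z) of MFN2 WT at PD 24. At PD 52 that sum was 50.7% in P and 174% in L/Z cells. In all 4 pairs each of the 6 genes lay within the range of the 17 spermatid markers. In P cells at PD 24, for instance, these markers ran from -5.67 to -0.46 on the log2 scale with a median of -2.17, and 5 of the 17 lay below Tssk6. Leydig cell markers, of the hormone-making cells outside the tubules, had a summed level of 682% (P) and 561% (L/Z) of MFN2 WT at PD 24 and 255% and 361% at PD 52, and 3 of 8 were called higher by limma. Macrophage markers stood at 218%, 308%, 235% and 753% in the same order, with 0 of 10 called. The summed pachytene list stayed between 80.1% and 112%, that of leptotene and zygotene cells between 72.3% and 123%, and that of peritubular myoid cells between 62.4% and 141%. The sum for spermatogonia was 119% (P) and 133% (L/Z) of MFN2 WT in young mice, and 48.4% and 51.0% in older mice. In older P cells the median log2 difference of its 10 genes was -0.15, with 3 at least 2-fold lower (5.78% of all genes) and 0 higher. Zbtb16, Gfra1, Kit and Nanos3 were higher in MFN2 cKO there and the rest of the list lower. For Sertoli cells the sum was 123%, 85.3%, 47.5% and 276%. The part of any of these cells in the values of the kinases was not tested.

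**Figure D3:**
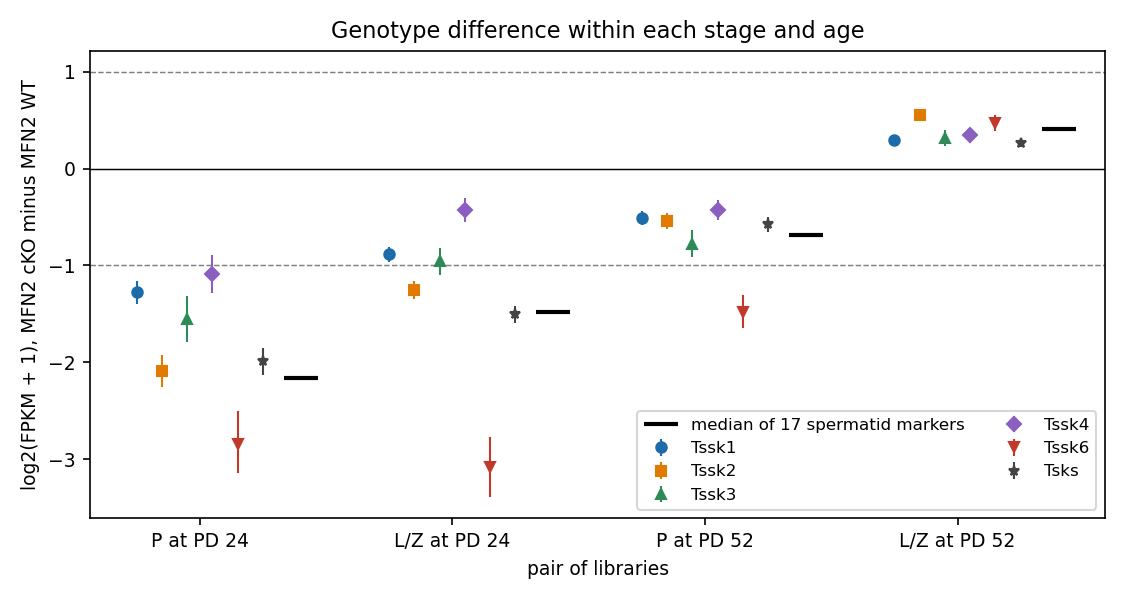
Difference in log2(FPKM + 1), MFN2 cKO minus MFN2 WT, for each gene in the 4 pairs, with 95% counting intervals. Dashed lines mark 2-fold and black bars the median of 17 spermatid markers. All 6 genes are below 0 in P and L/Z cells at PD 24 and in P cells at PD 52 and above 0 in L/Z cells at PD 52, and the spermatid median has the same sign in each pair.

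The interaction asks whether the genotype difference was another at PD 52 than at PD 24. For all 6 genes the estimate was above 0, that is, MFN2 cKO minus MFN2 WT lay higher at PD 52 than at PD 24. The PD 52 side averages a negative P pair and a positive L/Z pair for each gene. The log2 values were 0.97 ± 0.38 for Tssk1, 1.68 ± 0.49 for Tssk2, 1.03 ± 0.45 for Tssk3, 0.72 ± 0.40 for Tssk4, 2.46 ± 0.64 for Tssk6 and 1.60 ± 0.39 for Tsks. limma called 0 of the 6, with adjusted p between 0.224 and 0.531, and 0 of all 21175 genes in either direction (0%). Without adjustment 4 of the 6 (Tssk1, Tssk2, Tssk6 and Tsks) and 2582 of all genes had a limma p under 0.05. With voom weights on recovered reads 3 of the 6 were called, Tssk6 (adjusted p = 0.0189), Tsks (0.0238) and Tssk2 (0.0393), beside 536 genes higher and 88 lower among all genes. Without the L/Z pair at PD 52 the estimates were 0.57 for Tssk1, 0.48 for Tssk3, 0.33 for Tssk4 and 1.49 for Tssk6. That of Tssk4 was 0.39 without the P pair at PD 24 and 1.11 without the P pair at PD 52, where that of Tssk3 was 1.58. The fit has 2 residual degrees of freedom before moderation.

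The shares of the kinases in their common reads differed between genotypes within pairs, most widely in ratio for Tssk6 in the young pairs. Of the reads of the 5 kinases it held 7.31% (95% Clopper-Pearson interval 6.60 to 8.08) in MFN2 WT and 1.77% (1.15 to 2.60) in MFN2 cKO P cells at PD 24. In L/Z cells it held 5.96% (5.50 to 6.44) and 0.968% (0.704 to 1.30). In both young pairs the MFN2 cKO share lay below the interval of its control. At PD 52 the shares were 10.1% (9.50 to 10.6) and 5.34% (4.80 to 5.93) in P cells. They were 11.7% (11.2 to 12.1) in MFN2 WT and 12.2% (11.8 to 12.7) in MFN2 cKO L/Z cells, whose intervals overlapped. The log2 difference of Tssk6 between genotypes was below the median of the other 5 genes by 1.29 in P and 2.13 in L/Z cells at PD 24 and by 0.93 in P cells at PD 52, and above it by 0.15 in L/Z cells at PD 52. These intervals cover counting error only, and with 1 library per group the differences in share have no test across mice. Other kinases shifted too at PD 24. Tssk2 held 31.2% in MFN2 WT and 22.1% in MFN2 cKO P cells and 30.6% and 25.8% in L/Z cells, while Tssk1 held 38.2% and 47.7% in P and 39.1% and 42.5% in L/Z cells. Tssk4 held 12.4% and 17.5% in P and 12.2% and 18.3% in L/Z cells, and in all these pairs the intervals did not overlap. For Tssk3, with 10.97% and 10.9% in P and 12.1% and 12.5% in L/Z cells, they did. At PD 52 the intervals of Tssk1 did not overlap either, at 34.6% in MFN2 WT and 37.0% in MFN2 cKO P cells and 32.6% and 30.3% in L/Z cells. The same held for Tssk2 in L/Z cells (29.4% and 32.4%) and Tssk4 in P cells (16.8% and 19.1%). Those of Tssk2 in P, Tssk4 in L/Z and Tssk3 in both overlapped at that age.

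**Figure D4:**
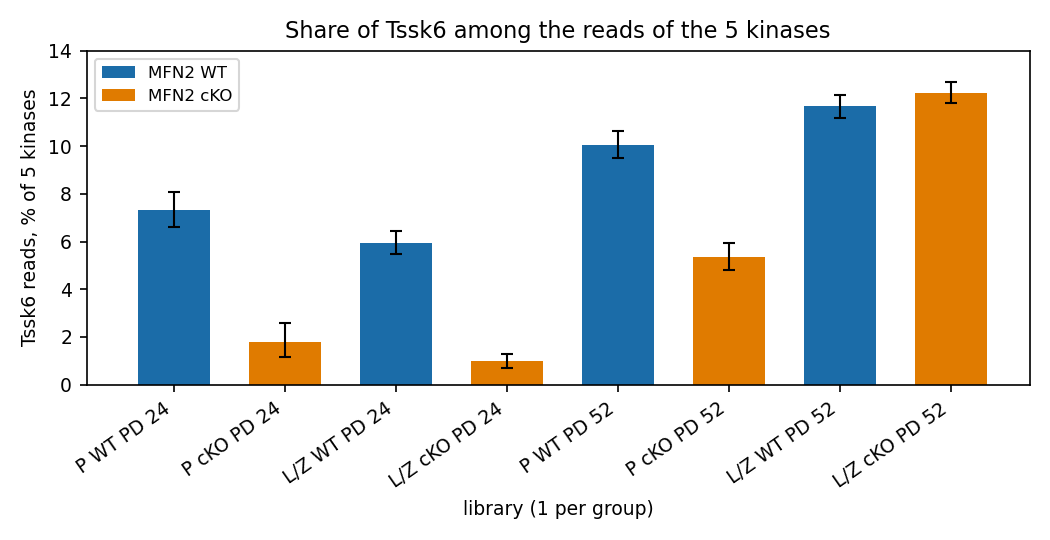
Reads of Tssk6 as a percent of the reads of the 5 kinases in each library, with 95% Clopper-Pearson intervals. The share is 1.77% and 0.968% in the young MFN2 cKO libraries and 5.96% to 12.2% in all others except MFN2 cKO P cells at PD 52, with 5.34%.

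Other genes of the pathway were taken from a list of 10, made of Tssk5, the co-chaperone Tsacc, Hsp90aa1 and Hsp90ab1, the phosphatase gene Ppp1cc, the substrates Odf2, Spag16 and H2afx, the kinase gene Pdpk1 and Crem, a transcription factor of spermatids. With age limma called 4 higher and 1 lower, where 11.2% and 4.91% of all genes were. Tssk5 (1.57 ± 0.19, adjusted p = 0.0185), Tsacc (0.78 ± 0.17, 0.0356), Crem (0.75 ± 0.14, 0.0248) and Spag16 (0.61 ± 0.13, 0.035) rose, and Hsp90ab1 fell (-0.85 ± 0.20, 0.0401). Between stages 1 was higher in P, H2afx (0.93 ± 0.18, 0.0122), and 1 lower, Tssk5 (-0.96 ± 0.17, 0.0103), beside 12% and 15.9% of all genes. None of the 10 was called for genotype or for the interaction with limma, with Tssk5 at -0.43 ± 0.20 (adjusted p = 0.746) for genotype. In MFN2 cKO P cells at PD 24, 1 of the 10, Tssk5, was at least 2-fold lower, at 2.83 against 7.10 FPKM, beside 6.29% of all genes. Tsacc, the partner of TSSK6, was at 64.4% of MFN2 WT there and at 102% in L/Z cells at PD 24, where Tssk6 was at 7.98%. At PD 52 Tsacc was at 51.7% in P cells, where Tssk6 was at 34.7%, and at 109% in L/Z cells, where Tssk6 was at 139%. The median of the 10 for genotype was -0.12, beside -0.79 for the 6 genes and -0.04 for all genes.

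Genes with the most similar pattern were sought among 6686 protein-coding genes above 10 FPKM in at least one library. Closest to the mean standardised profile of the 6 genes over the 8 libraries were Tbc1d21 (Pearson r = 0.999), Gsg1 (0.999), 1700019D03Rik (0.998), Spata20 (0.998) and Odf3 (0.998). Gsg1 is also among the 17 spermatid markers. The gene most like each was 4933402J07Rik for Tssk1, Actl7a for Tssk2, Aptx for Tssk3, Gm47841 for Tssk4, 1700015G11Rik for Tssk6 and 1700029H14Rik for Tsks, with r from 0.997 to 1.00. The pattern was common, since 1113 of the 6686 genes (16.6%) had an r above 0.9.

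The 6 genes together stood beside the spermatid markers in the same order of libraries. Their summed level was 49.5 FPKM in MFN2 cKO P cells at PD 24, where the 17 markers summed to 265 FPKM, and 1215 FPKM in MFN2 cKO L/Z cells at PD 52, where these summed to 22971 FPKM. The sum of the 6 genes, none of which is among the markers, equalled 11.04% and 18.7% of the marker sum in MFN2 WT and MFN2 cKO P cells and 11.7% and 21.4% in L/Z cells at PD 24. At PD 52 it equalled 8.24% and 10.4% in P cells and 6.99% and 5.29% in L/Z cells. The marker sum thus varied more widely between libraries than that of the 6 genes. The mean log2 profiles of the 6 genes and the 17 markers had r = 0.994 over the 8 libraries, which share cells and depth.

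**Figure D5:**
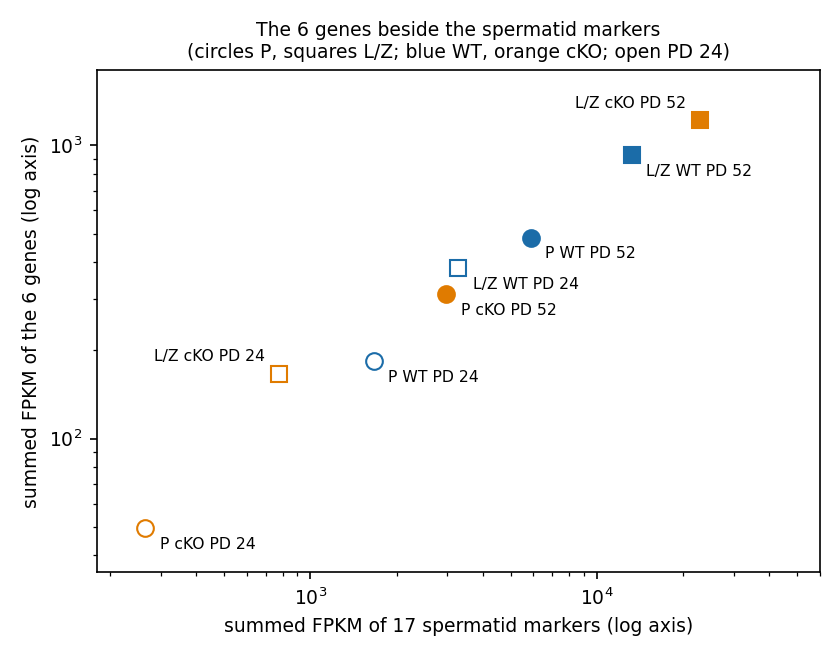
Summed FPKM of the 6 genes against that of 17 spermatid markers (both axes log), 1 point per library. The points run from MFN2 cKO P cells at PD 24 (49.5 and 265 FPKM) to MFN2 cKO L/Z cells at PD 52 (1215 and 22971 FPKM).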

How the data were processed

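The authors sequenced paired-end reads and deposited 1 table of FPKM values per gene, made with Novomagic, for 8 libraries. The submitters' processing notes name CASAVA 1.4, Bowtie 0.12.2 and the builds mm8 and mm9 without a role, and 98.3% of the 54532 genes have their GENCODE M21 (GRCm38) coordinates. The aligner of the table is not given in the sources used here. No per-sample column was left out (0 unused).

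The 6 genes and all gene lists were chosen with earlier results of these data known. FPKM times gene length fell on whole multiples of a step in each library (100% of values, tolerance 0.001), which gave reads and counting intervals. These cover counting error only. Groups of 1 library have no test, so changes within a pair are differences in log2(FPKM + 1), counted at 2-fold among genes above 1 FPKM in either library. The scale understates changes of low genes. Effects of genotype, age, stage and genotype by age were fitted with limma 3.58.1 (R 4.3.3) over all 8 libraries with the pair as a block, on 21175 genes above 1 FPKM in at least one library, with Benjamini-Hochberg adjustment and calls under 0.05. The effects use the same 8 libraries and are not independent of each other. The spread these p-values measure is that between pairs of unlike stage, age or genotype, and not between mice of a group.

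Named singly were the 6 genes, Mfn2, the 10 pathway genes, marker genes and the genes most alike in pattern (the 5 closest to the mean profile and the closest to each gene). Marker lists covered spermatids, pachytene, leptotene and zygotene cells, spermatogonia, Sertoli, Leydig and peritubular myoid cells and macrophages. Alternatives were a pseudocount of 0.1, the plain FPKM ratio, protein-coding genes only, no filter, a further median-of-ratios scaling, voom weights, no block, and each pair left out. The fits were also run on simulated data, whose outcome is not given here. Promoters came from RefSeq (GRCm38.p6), where all 6 genes matched, and identities from global alignments with Biopython 1.88. Protein sequences were not used here.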

Additional observations from a re-analysis of the deposited data

Results flagged for a closer look

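At PD 52 the genotype difference had opposite signs in P and L/Z cells for all 6 genes, each stage having 1 library per genotype, and the difference between the stages was not tested. On the log2(FPKM + 1) scale, MFN2 cKO minus MFN2 WT in P cells was -0.51 for Tssk1, -0.54 for Tssk2, -0.77 for Tssk3, -0.42 for Tssk4, -1.48 for Tssk6 and -0.57 for Tsks. In L/Z cells of the same age it was 0.30 for Tssk1, 0.55 for Tssk2, 0.32 for Tssk3, 0.35 for Tssk4, 0.47 for Tssk6 and 0.27 for Tsks. The median of the 17 spermatid markers was -0.68 in P and 0.41 in L/Z cells, and their part in the pattern was not tested. At PD 24 the same difference was below 0 in both stages for all 6 genes.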

How the results depend on the processing

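The sign of each effect on each of the 6 genes held under every limma alternative run. Beside 17 genes called higher and 1 lower for genotype, a pseudocount of 0.1 and no filter on FPKM gave 0 and 0, protein-coding genes alone 69 higher, voom weights 111 and 3, no block 3 and 0, and leaving out a pair 0 to 0 for each. For age (2365 higher, 1040 lower, 6 of the 6 genes) a pseudocount of 0.1 gave 1159, 479 and 3, no filter 1396 higher and 3 of the 6, no block 1, 0 and 0, and leaving out a pair between 0 and 2057 higher, between 0 and 1117 lower and between 0 and 6 of the 6. Genes called lower with age were 1571 among protein-coding genes and 1628 with voom weights. For stage (2547 higher in P, 3370 lower, 6 of the 6 genes) no block gave 856, 279 and 0, and leaving out a pair moved the counts to between 0 and 2277 higher, between 0 and 2635 lower and between 0 and 5 of the 6. For genotype by age (0 calls) protein-coding genes alone gave 168 higher and 25 lower, voom weights 536 and 88 with 3 of the 6 genes, and no block 1 higher. After median-of-ratios scaling 4 of the 6 genes, not 2, were at least 2-fold lower in P than in L/Z cells of MFN2 WT mice at PD 52. The cause of these shifts was not tested. Without a pseudocount Tssk6 in MFN2 cKO was lower by 3.73 (P) and 3.65 (L/Z) on the log2 scale at PD 24. The 25 and 44 reads of Tssk6 in those libraries limit its precision there. No paired analysis by replicate number was possible because each group holds 1 library.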
